A study of Mus musculus with 12 samples.

Results

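The genes described here are 34 that encode the machinery of meiotic chromosomes and meiotic recombination, followed in germ cells of the newborn mouse testis, a stage at which no germ cell has yet begun meiosis. They were chosen by gene name and all 34 were found among the 54532 genes of the count and FPKM tables. RNA was sequenced from 12 libraries of mice carrying the Tg(Pou5f1-EGFP)2Mnn transgene, whose OCT4-GFP reporter marks germ cells, so that all groups, the saline controls included, carried it. Dams received 10 μg dexamethasone (dex, a synthetic glucocorticoid) per gram of body weight, or saline, by intraperitoneal injection at embryonic days E17.5 and E18.5, the male pups were injected under the skin with the same dose at postnatal day (PN) 0, and testes were collected at PN1. Sorting separated germ cells, which carry GFP, from the somatic cells, which do not, and gave 4 groups of 3 libraries: saline germ cells, dex germ cells, saline somatic cells and dex somatic cells. Each library held cells pooled from at least 2 litters dosed independently, so that single animals cannot be followed.

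In meiosis, cohesin complexes hold sister chromatids together along a protein axis, SPO11 cuts the DNA, DMC1 carries the strand exchange that repairs the cuts from the homologous chromosome, and the synaptonemal complex zips homologs together so that crossovers can form. STRA8 and the RNA-binding partners MEIOC and YTHDC2 are needed for germ cells to enter and stay in this programme. Ovarian germ cells do so before birth, whereas those of the testis are non-dividing prospermatogonia around birth and enter meiosis only after spermatogonia have formed.

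Library totals ran from 18459692 to 25178477 counts, so that the limit that a count of 0 allows, 3 counts, stood at 0.114 to 0.165 CPM (read counts per 1000000, scaled by TMM over the 12 libraries). The sort was followed by marker genes: the summed CPM of 12 germ cell markers in saline somatic cells was 0.667% of that in saline germ cells, and the 8 Sertoli cell markers in saline germ cells summed to 1.37% of their level in saline somatic cells. The same share was 1.52% for peritubular and stromal, 2.87% for erythroid, 6.47% for Leydig cell, 9.36% for macrophage and 21.3% for endothelial markers. Of the 5 endothelial markers 4 passed as lower and 1 as higher in saline germ than in saline somatic cells (log2 difference 0.60 for the last). What part of their sum was carried over in the sort was not tested. In germ cells 231 of 18550 genes tested passed an adjusted p-value of 0.05 between dex and saline (1.25%), among them the glucocorticoid targets Ddit4 (log2 fold change 1.61 ± 0.18, SE) and Klf9 (1.08 ± 0.14). Of 9 glucocorticoid response genes tested 3 passed, these 2 as higher and 1 as lower in dex. Over the 9, 6 log2 fold changes were above and 3 below 0, with a median of 0.0998. The authors report that canonical response genes, Klf9 among them, were unchanged in germ cells.

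Most of the meiosis genes were already transcribed in saline germ cells at PN1. At a level of 1 FPKM (fragments per kilobase of gene and per library size, a scale that allows genes to be compared) or more stood 32 of the 34, beside 53.2% of 22046 protein-coding genes, and 19 reached 10 FPKM, beside 24.0%. In dex germ cells the counts were again 32 and 19, whereas in saline somatic cells 5 and 1 members reached these levels. The coefficient of variation between the 3 saline germ libraries had a median of 9.0% over the 34 genes and ran from 3.09% for Rec114 to 29.2% for Mei4. In single libraries, every member was counted in each of the 6 germ libraries, with 52 reads as the lowest count.

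**Figure D1:**
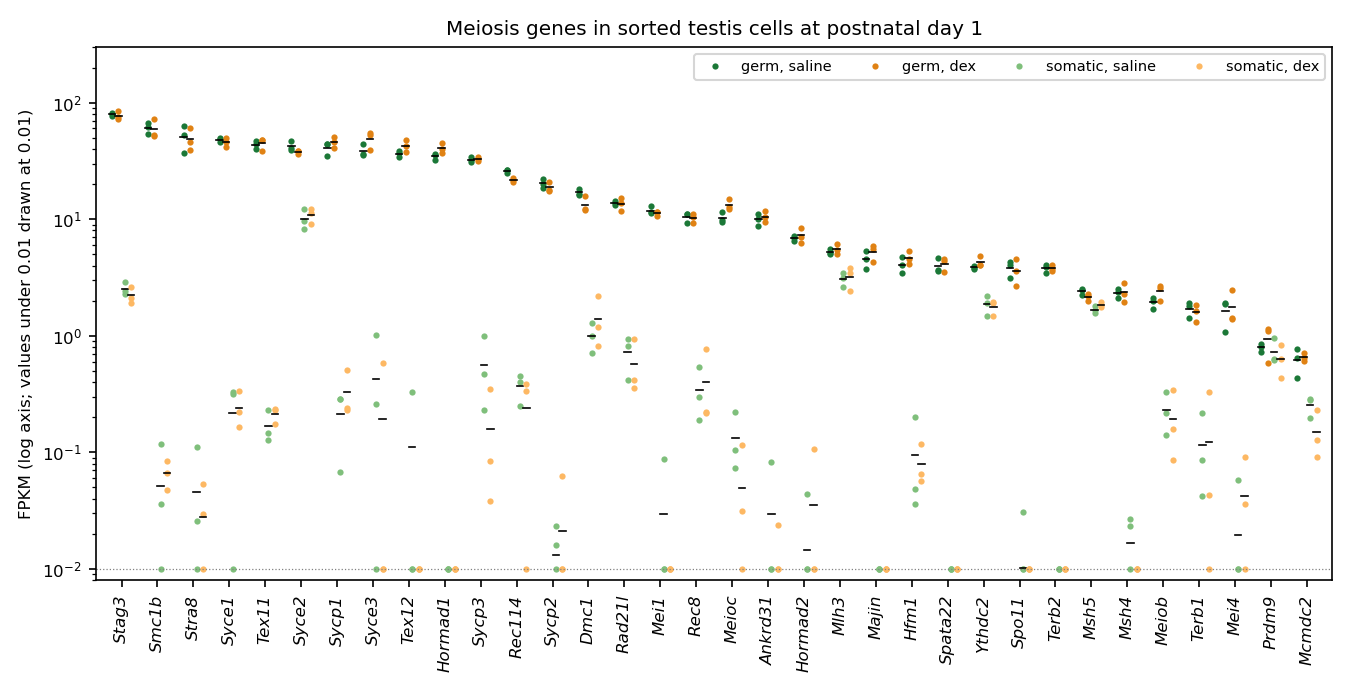
FPKM (log axis) of the 34 meiosis genes in each of the 12 libraries, in order of their mean level in saline germ cells; points are libraries and black lines group means, and values under 0.01 are drawn at 0.01. Saline and dex germ cells lie side by side from Stag3 at the left (79.3 FPKM) to Mcmdc2 at the right (0.615 FPKM), and the somatic libraries lie far lower for most members, with Prdm9 and Msh5 close to the germ cells.

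The meiotic cohesin subunits included the most abundant members. Stag3 (ENSMUSG00000036928, chr5:138280240-138312393 on mm10), the meiotic stromal antigen subunit, was read at 79.4, 82.1 and 76.5 FPKM in the saline germ libraries, with a mean above those of 98.1% of protein-coding genes. Smc1b (ENSMUSG00000022432, chr15:85064689-85131964), the meiotic form of the SMC1 arm, was next at 53.8, 66.2 and 61.6 FPKM. The kleisins, which close the cohesin ring, were lower, with Rad21l (ENSMUSG00000074704, chr2:151645404-151668533) at 13.9, 14.3 and 13.4 FPKM and Rec8 (ENSMUSG00000002324, chr14:55618037-55625395) at 10.98, 11.2 and 9.33 FPKM. The ranges of Stag3 and Smc1b did not overlap, nor did those of Rad21l and Rec8.

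These levels were set against those of the general cohesin subunits in the same libraries. In saline germ cells Smc1b stood at 3.58 ± 0.573 times the FPKM of Smc1a (SD, n = 3), its counterpart in all dividing cells, against 4.21 ± 0.918 times in dex germ cells and 0.00177 ± 0.00212 times in saline somatic cells. Stag3 likewise exceeded both of its counterparts in saline germ cells, at 3.66 ± 0.196 times Stag1 and 6.76 ± 0.442 times Stag2, and was below both in saline somatic cells, at 0.255 ± 0.0243 and 0.159 ± 0.0302 times. The kleisins did not follow this order. Rad21, the general kleisin, was read at 168 ± 7.94 FPKM in saline germ cells, and Rad21l and Rec8 reached 0.0822 ± 0.00120 and 0.0623 ± 0.00361 times its level. In saline germ cells, transcripts of the meiotic form thus outnumbered the general form for the arm and the stromal antigen subunit, and not for the kleisin.

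**Figure D2:**
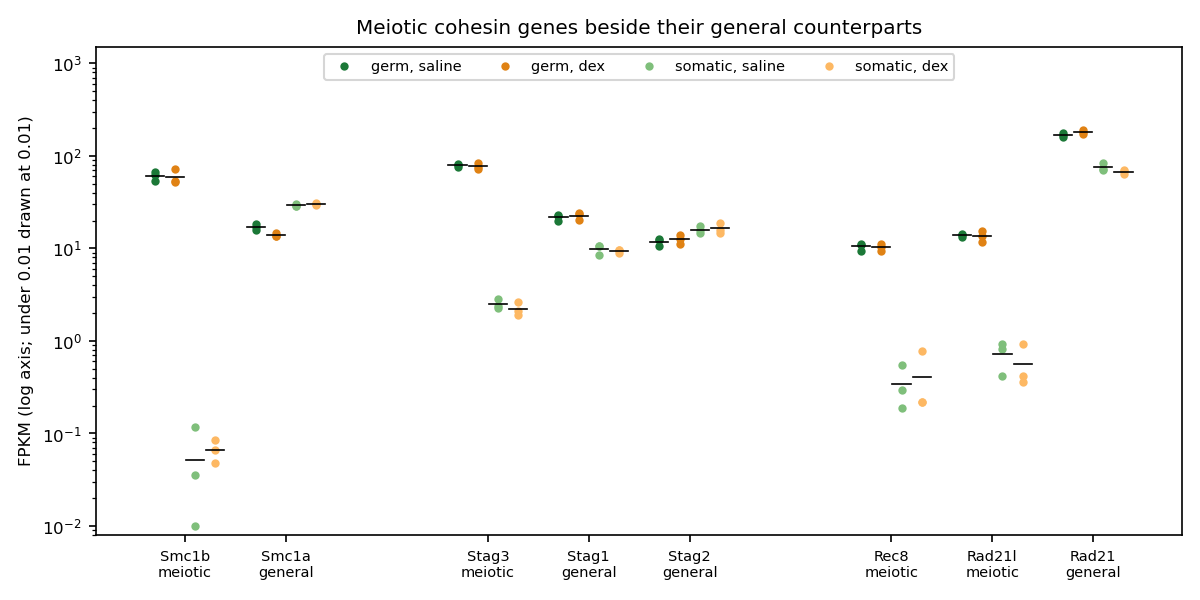
FPKM (log axis) of meiotic cohesin genes beside their general counterparts in the 12 libraries; points are libraries, black lines are group means, and values under 0.01 are drawn at 0.01. In both germ cell groups Smc1b and Stag3 lie above Smc1a, Stag1 and Stag2, while Rec8 and Rad21l lie below Rad21.

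The 7 synaptonemal complex genes were all well above 10 FPKM. The central element genes Syce1 (ENSMUSG00000025480, chr7:140777229-140787852), Syce2 (ENSMUSG00000003824, chr8:84872111-84888221) and Syce3 (ENSMUSG00000078938, chr15:89390174-89410503) had means of 47.7 ± 1.97, 42.3 ± 4.04 and 38.7 ± 4.71 FPKM in saline germ cells (SD, n = 3), and Tex12, a further central element gene, one of 36.5 ± 2.42. Sycp1, which encodes the transverse filament between the homologs, was at 41.1 ± 5.41 FPKM. Of the lateral element genes, Sycp3 (ENSMUSG00000020059, chr10:88459569-88473236) was read at 31.9, 34.2 and 30.9 FPKM and Sycp2 at 22.2, 20.2 and 18.6, so that every Sycp2 value lay below every Sycp3 value. Sycp3 shared 40.4% of its 64-base stretches with other genes, of which Chpt1 shared the most. Chpt1, a gene on the other strand, held 1070 counts on average in saline germ cells against 842 for Sycp3. The strand setting of the counting is not given, so that reads of the pair cannot be told apart by strand. In saline somatic cells, where Chpt1 held 902 counts on average, Sycp3 held 16. Of the 2 axis proteins with a HORMA domain, Hormad1 was at 34.8 ± 2.14 FPKM and Hormad2 at 6.88 ± 0.321.

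The 6 genes for double-strand break formation were spread widely. Rec114 (ENSMUSG00000074269, chr9:58652850-58743964), a partner that SPO11 needs for cutting, was at 25.00, 26.5 and 26.5 FPKM, and Mei1 and Ankrd31, which act at the same step, were at 11.9 ± 0.880 and 10.02 ± 1.18. Spo11 itself (ENSMUSG00000005883, chr2:172977700-172993576), the gene of the cutting enzyme, was read at only 4.31, 3.11 and 4.04 FPKM. Mei4 had 1.62 ± 0.465 FPKM, and Prdm9 (ENSMUSG00000051977, chr17:15543079-15564354), whose histone methyltransferase product marks the sites to be cut, had 0.730, 0.849 and 0.806 FPKM. All 3 Rec114 values thus exceeded all 3 Spo11 values, and these exceeded all 3 Prdm9 values.

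Among genes of strand exchange, Dmc1 (ENSMUSG00000022429, chr15:79561497-79605109), the meiotic recombinase, was read at 16.1, 16.6 and 18.3 FPKM in saline germ cells. The single-strand DNA-binding partners Spata22 and Meiob (ENSMUSG00000024155, chr17:24804382-24839787) followed at 3.96 ± 0.575 and 1.94 ± 0.200 FPKM, and Mcmdc2 at 0.615 ± 0.172. In the crossover group the X-linked Tex11 (ENSMUSG00000009670, chrX:100838648-101059667) stood apart at 43.7 ± 3.34 FPKM, beside 5.24 ± 0.307 for Mlh3, 4.07 ± 0.629 for Hfm1, 2.41 ± 0.166 for Msh5 and 2.32 ± 0.218 for Msh4. The genes that tether telomeres to the nuclear envelope were low, with Majin at 4.57 ± 0.806, Terb2 at 3.80 ± 0.305 and Terb1 at 1.71 ± 0.265 FPKM. Spata22 shared 79.4% of its 64-base stretches with other genes, of which the gene model Gm49340, at 0 counts in saline germ cells, shared the most. Reads of the shared stretches may thus be missing from the level of Spata22.

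Of the genes for meiotic entry, Stra8 (ENSMUSG00000029848, chr6:34920163-34939344), induced by retinoic acid, ranked 3 of 34 and was among the less even members, with 62.8, 52.3 and 37.1 FPKM in the saline germ libraries and 45.6, 39.2 and 60.8 in the dex germ libraries. The spread within a group (coefficient of variation 25.9% in saline) exceeded the difference between the groups. Meioc (ENSMUSG00000051455, chr11:102663716-102682237) was at 11.4, 9.40 and 9.82 FPKM and Ythdc2, the gene of its RNA helicase partner, at 3.82, 4.001 and 3.74 FPKM.

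The comparison of germ with somatic cells asked how far transcription of these genes was a property of the germ cells. In saline libraries 33 of 34 members were higher in germ cells (edgeR quasi-likelihood test, adjusted p-value of 0.05 or less), beside 39.8% of all 18870 genes tested, and in dex libraries 32 of 34, beside 40.5% of 18778 genes. Most members had too few reads in somatic cells to enter the test by any other way than their germ libraries, so that these counts describe the members and carry no size. With 10 counts asked of every library, 11 members were left in saline and 12 in dex, of which 10 were higher in germ cells in each, beside 38.1% and 38.5% of the genes left. Prdm9 passed in neither. Msh5, of a mismatch repair family that stabilises crossover intermediates, passed in saline only, with a log2 difference of 0.40 ± 0.17 (SE, 95% interval 0.027 to 0.77, adjusted p = 0.0491 by edgeR) in saline and 0.12 ± 0.18 (SE, 95% interval -0.28 to 0.52, adjusted p = 0.553 by edgeR) in dex. Its call in saline held under 7 of 14 alternative settings, and with 1 library left out its adjusted p-value by edgeR ran from 0.0499 (without the second saline germ library) to 0.151 (without the first), and was above 0.05 without any of the other four. The difference between these values did not pass either (adjusted p = 0.671 by edgeR).

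Read counts in the somatic libraries showed how low most members were there. Hormad1, Majin, Spata22 and Terb2 had 0 counts in all 3 saline somatic libraries, and those 4 with Mei1, Spo11 and Tex12 had 0 in all 3 dex somatic libraries. Against a floor of 3 counts in every saline somatic library, Hormad1 was at least 431-fold higher in saline germ cells and Sycp2, with 2, 0 and 3 counts, at least 868-fold higher. Stra8 had 0, 5 and 1 counts in saline somatic cells, Smc1b 3, 12 and 0, and Spo11 0, 3 and 0. In CPM, 16 of the 34 members stood at under 1% of their germ cell level and 27 at under 10%.

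The remaining 7 members had a sizeable level in somatic cells. Prdm9 stood at 96.4% of its saline germ level, Msh5 at 72.6%, Mlh3 at 61.2%, Ythdc2 at 50.2%, Mcmdc2 at 42.9%, Syce2 at 24.6% and Meiob at 12.4%. Prdm9 gave 3.16, 3.68 and 3.46 CPM in saline germ cells and 2.76, 4.46 and 2.72 CPM in saline somatic cells, which overlapped, with a log2 difference of -0.013 ± 0.31 (SE, 95% interval -0.70 to 0.67, adjusted p = 0.972 by edgeR). The sign of this value turned under other scalings, so that no direction can be given. Mlh3, a mismatch repair gene active outside meiosis too, gave 37.96, 42.5 and 38.8 CPM in germ and 20.2, 25.7 and 27.02 CPM in somatic cells of saline testes, a log2 difference of 0.65 ± 0.13 (SE, 95% interval 0.36 to 0.93, adjusted p = 0.000705 by edgeR). Ythdc2 differed by 0.93 ± 0.15 (SE, 95% interval 0.59 to 1.27, adjusted p = 0.000149 by edgeR) on the log2 scale. In both cases all germ libraries lay above all somatic libraries. In saline somatic cells Gcdh, which overlaps Syce2 on the other strand, held 707 counts on average against 439 for Syce2, and Snhg6, which overlaps Mcmdc2, held 672 against 33.3, and the part of such reads was not tested.

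Below these, Terb1 (6.97%), Dmc1 (6.12%) and Rad21l (5.48%) also exceeded the somatic share of the 12 germ cell markers, which ran from 0 (Dppa3 and Nanos2) to 5.03% (Dnd1) with a median of 0.221%. Dmc1 had 36, 78 and 52 counts in the saline somatic libraries and 37, 59 and 110 in the dex somatic libraries. Rec8 (3.44%) and Stag3 (3.31%) lay within the range of the markers. How much of these somatic counts came from germ cells left in the GFP-negative fraction was not tested.

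**Figure D3:**
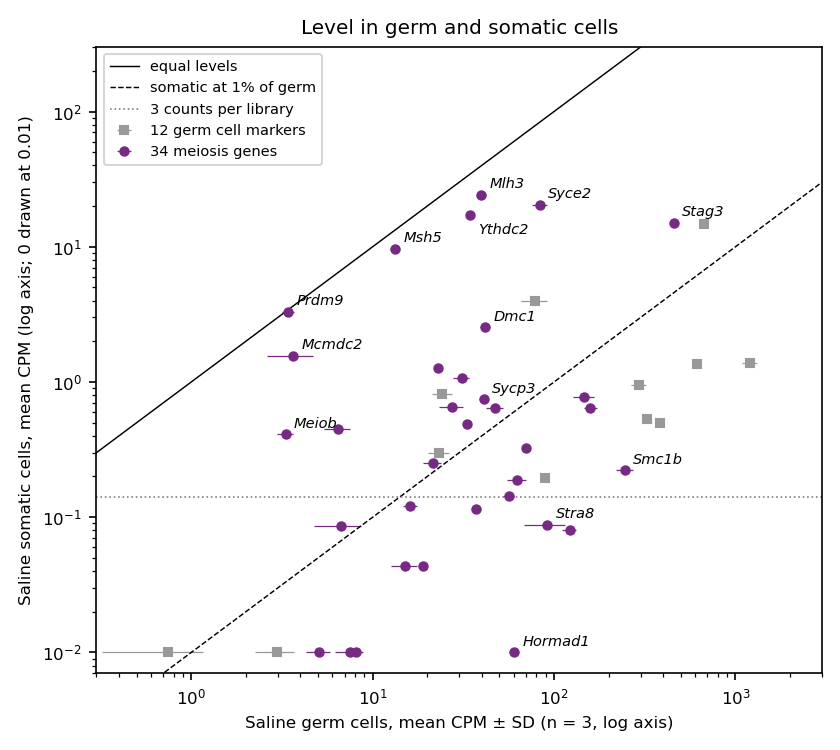
Mean CPM in saline somatic cells against saline germ cells (log axes) for the 34 meiosis genes and 12 germ cell markers; horizontal bars are the SD of 3 germ libraries, the dotted line is the level of 3 counts, and means of 0 are drawn at 0.01. Most members lie near or below the line of 1% of the germ level, with Prdm9 (96.4%), Msh5 (72.6%), Mlh3 (61.2%) and Ythdc2 (50.2%) close to the line of equal levels.

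Because the members were high in germ cells and low in somatic cells together, their promoters were read for the motifs of factors known to silence germline genes outside the germ line: the E-box (CACGTG on both strands, a palindrome), bound by MGA and MAX, and the E2F motif (GCGGGAA, either strand), bound by E2F6. RefSeq windows on GRCm38.p6, from 250 bases before to 50 after each start, were at hand for 27 of the 34 members. The E-box stood in the windows of 7 of the 27 (25.9%), beside 8.09% of 27025 genes, and the E2F motif in 11 (40.7%), beside 5.29%. Together 12 members (44.4%, beside 12.8% of genes) held at least 1 of them. Both were held by 6, namely Hormad1, Sycp3, Tex12, Rec114, Stag3 and Syce2. Some matches lay inside the gene as counted, before a RefSeq start further in, as for Rec114, Stag3, Syce2, Meioc and Msh5. The median GC content of the members' windows was 60.3%, against 52.7% for all windows, and its part in these shares was not tested. A match describes the letters of a window, not a bound site, and a window without a match says nothing of the factor.

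The stretches below show 3 of the members that hold both motifs (Hormad1, Sycp3 and Tex12), 1 with each motif alone (Sycp1 and Smc1b) and, for contrast, the recombinase gene Dmc1, whose window held neither. They are given 5′ to 3′ on the strand of the gene, with matches in capitals and all other bases in lower case, and end before the annotated start. Hormad1 was read from chr3:95559562-95559676, plus strand, Sycp3 from chr10:88459420-88459568, plus strand, Tex12 from chr9:50561336-50561433, minus strand, Sycp1 from chr3:102936169-102936214, minus strand, Smc1b from chr15:85131979-85132025, minus strand (the capitals are the E2F motif on the other strand), and Dmc1 from chr15:79605110-79605209, minus strand.
Hormad1: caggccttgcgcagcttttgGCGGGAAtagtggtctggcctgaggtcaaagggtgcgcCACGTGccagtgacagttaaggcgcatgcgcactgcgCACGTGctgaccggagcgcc
Sycp3: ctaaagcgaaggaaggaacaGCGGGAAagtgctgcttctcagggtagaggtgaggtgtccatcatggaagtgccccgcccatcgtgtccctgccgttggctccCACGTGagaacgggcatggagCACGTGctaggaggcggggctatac
Tex12: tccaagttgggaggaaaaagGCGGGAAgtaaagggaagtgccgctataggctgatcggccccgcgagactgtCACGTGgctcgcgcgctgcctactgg
Sycp1: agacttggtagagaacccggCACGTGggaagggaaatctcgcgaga
Smc1b: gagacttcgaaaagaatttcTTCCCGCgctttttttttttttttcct
Dmc1: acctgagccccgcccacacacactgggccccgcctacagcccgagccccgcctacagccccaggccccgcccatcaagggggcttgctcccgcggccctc

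Somatic levels varied among members with and without a motif, and those named here were picked after their values were seen. Syce2, with both motifs in a window, kept 24.6% of its germ cell level in saline somatic cells, and Hormad1, also with both, 0. Prdm9, Msh5 and Smc1b, with the E2F motif, kept 96.4%, 72.6% and 0.0905%. For Syce2 and Msh5 the matches lay inside the gene as counted, and the 100 bases before its start held 0. Of members with neither motif, Mlh3 kept 61.2%, Dmc1 6.12% and Sycp2 0.0661%. Levels with and without a motif were not compared over all members.

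The central comparison asked whether dex changed these genes in germ cells, and no member passed the test. All 34 were tested, and 0 passed an adjusted p-value of 0.05 by edgeR, beside 1.25% of all genes tested. By DESeq2 0 passed, beside 674 of 14816 genes. Limma on FPKM passed 0 of 23343 genes in this comparison. Its count of 0 for the members, or for any other list compared between dex and saline germ cells, thus says nothing about them. At an unadjusted p-value under 0.05 stood 4 members by edgeR (Meioc, Dmc1, Rec114 and Syce2), beside 14.7% of all genes tested, and the lowest adjusted p-value was 0.142. The 34 log2 fold changes ran from -0.37 to 0.35 with a median of 0.0055, beside -0.0027 over all genes tested, and 18 were above and 16 below 0. Without the third saline germ library, 13 were above and 21 below 0 with a median of -0.043. The 95% interval of each of the 34 excluded a 2-fold change, and that of 25 excluded a 1.5-fold change. In bulk RNA, fewer cells of a type and less RNA per cell cannot be told apart.

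**Figure D4:**
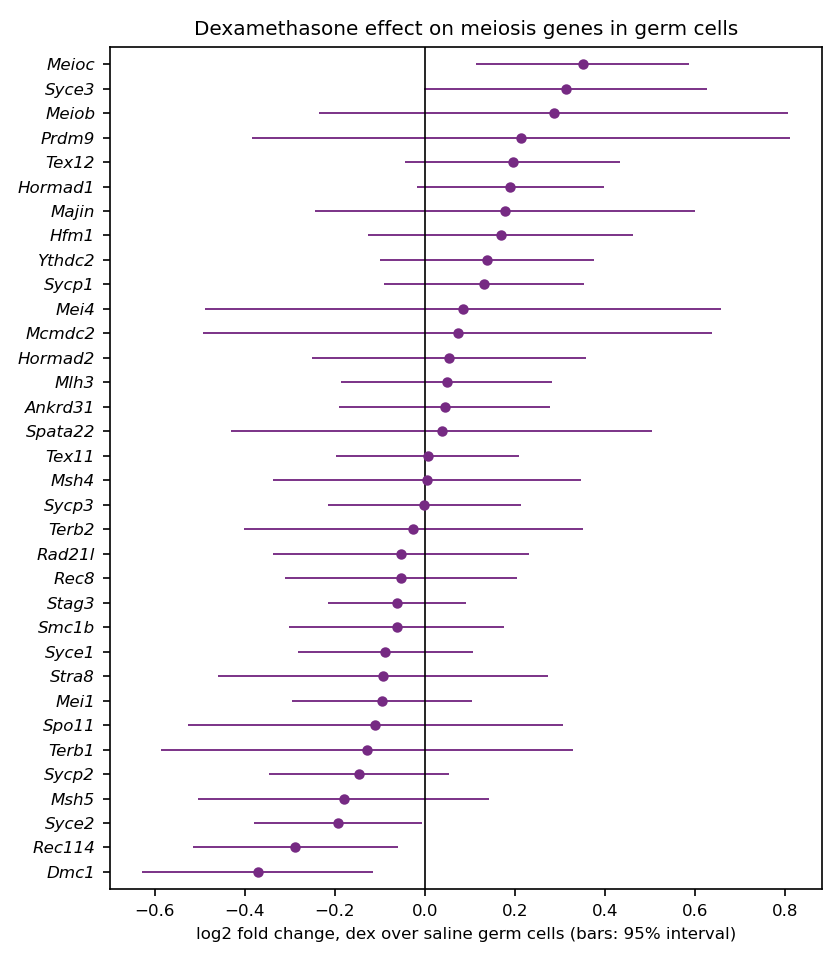
Log2 fold change between dex and saline germ cells for the 34 meiosis genes, with bars for the 95% interval from the edgeR fit (3 against 3 libraries). The values run from -0.37 for Dmc1 to 0.35 for Meioc, and no adjusted p-value is under 0.142.

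Meioc had the highest fold change. It gave 53.1, 43.6 and 45.2 CPM in saline and 68.3, 56.1 and 57.96 CPM in dex germ cells, so that all dex values lay above all saline values, and its log2 fold change was 0.35 ± 0.11 (SE, 95% interval 0.11 to 0.59, adjusted p = 0.142 by edgeR). With no filter on low counts, which tested more genes and passed 767 of 33910, Meioc passed at an adjusted p-value of 0.0432 by edgeR. Its partner Ythdc2 had a log2 fold change of 0.14 ± 0.11 (SE, 95% interval -0.10 to 0.38, adjusted p = 0.620 by edgeR) with overlapping libraries, and Stra8 one of -0.093 ± 0.17 (SE, 95% interval -0.46 to 0.27, adjusted p = 0.858 by edgeR).

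The next highest values had overlapping libraries. Syce3 gave 19.8, 20.3 and 24.3 CPM in saline and 21.4, 30.3 and 28.8 in dex germ cells, a log2 fold change of 0.31 ± 0.15 (SE, 95% interval -0.00063 to 0.63, adjusted p = 0.339 by edgeR). Meiob gave 3.43, 2.93 and 3.56 CPM in saline and 3.34, 4.33 and 4.54 in dex germ cells (0.29 ± 0.24 SE, 95% interval -0.23 to 0.81, adjusted p = 0.645 by edgeR). For both genes the lowest dex library lay within the saline range.

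Dmc1 had the lowest fold change. It gave 39.5, 40.6 and 44.5 CPM in saline and 29.6, 38.00 and 29.3 CPM in dex germ cells, and its log2 fold change was -0.37 ± 0.12 (SE, 95% interval -0.63 to -0.11, adjusted p = 0.154 by edgeR). All dex values lay below all saline values, with the second dex library close to the lowest saline library.

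Rec114 was the second lowest, with 32.1, 34.04 and 33.7 CPM in saline and 26.3, 28.4 and 27.7 in dex germ cells and a log2 fold change of -0.29 ± 0.11 (SE, 95% interval -0.52 to -0.059, adjusted p = 0.214 by edgeR). The dex and saline ranges were narrow and apart. Rec114 shared 17.6% of its 64-base stretches with other genes, of which Nptn, on the other strand, shared the most. Nptn held 260% of the counts of Rec114 in saline germ cells and had a log2 fold change of 0.13 ± 0.087 (SE). In saline somatic cells, where Nptn held 2625 counts on average, Rec114 held 10.3. Syce2 gave 81.01, 77.7 and 92.1 CPM in saline and 70.97, 74.9 and 75.02 in dex germ cells, a log2 fold change of -0.19 ± 0.088 (SE, 95% interval -0.38 to -0.0058, adjusted p = 0.321 by edgeR). Gcdh, which overlaps Syce2 on the other strand, held 13.6% of its counts in saline germ cells and had a log2 fold change of -0.074 ± 0.17 (SE).

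**Figure D5:**
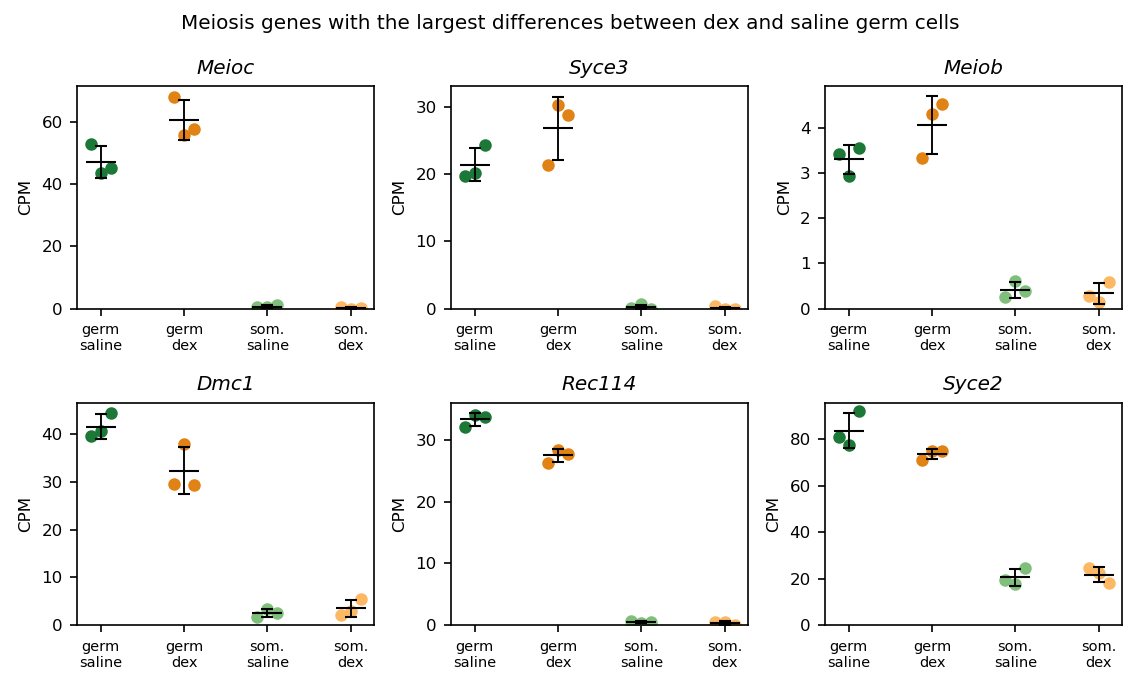
CPM of the 3 members with the highest (Meioc, Syce3, Meiob) and the 3 with the lowest (Dmc1, Rec114, Syce2) log2 fold change between dex and saline germ cells, in all 12 libraries; points are libraries, with mean and SD (n = 3). For Meioc the dex points lie above the saline points, for Dmc1, Rec114 and Syce2 below them, and the adjusted p-values run from 0.142 to 0.645.

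Meioc, Dmc1, Rec114 and Syce2 were the 4 members whose dex and saline germ libraries did not overlap, 4 of 34 beside 20.1% of all genes tested, so that separation was not more frequent among them than among genes at large. The 4 cohesin members had log2 fold changes between -0.063 and -0.052, namely -0.062 ± 0.072 for Stag3, -0.063 ± 0.11 for Smc1b, -0.054 ± 0.12 for Rec8 and -0.052 ± 0.13 for Rad21l (SE). Of the 7 synaptonemal complex genes, 3 were above and 4 below 0, with Syce1 at -0.087 ± 0.090 and Sycp3, whose sign turned under other scalings, at -0.0012 ± 0.10. Spo11 stood at -0.11 ± 0.20, Prdm9 at 0.21 ± 0.28 and Tex11 at 0.0067 ± 0.10. The summed CPM of the 34 was 1951 to 2092 in saline and 2016 to 2047 in dex germ libraries, which overlapped.

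Sums of somatic cell markers lay apart between the groups of germ libraries for some cell types. What part of them was transcribed by the germ cells was not tested. The 8 Sertoli cell markers summed to 48.0 to 56.5 CPM in saline and 29.2 to 41.0 CPM in dex germ libraries, without overlap. The 7 of them that were tested had log2 fold changes between -0.68 and -0.27, and 0 passed an adjusted p-value of 0.05 by edgeR. At an unadjusted p-value under 0.05 stood 4, beside 14.7% of all genes tested, and 3 had libraries that did not overlap, beside 20.1%. The summed 6 Leydig cell markers ran from 9.07 to 11.8 CPM in saline and from 4.83 to 8.79 CPM in dex, and the 5 erythroid markers from 7.70 to 9.22 and from 4.16 to 7.06 CPM, again without overlap. In somatic libraries the mean sums in saline and dex were 3809 and 3734 CPM for Sertoli cell, 159 and 119 CPM for Leydig cell and 297 and 174 CPM for erythroid markers. The ranges overlapped for each. There 0 of 8 Sertoli cell markers passed by edgeR. Of the Leydig cell markers 1 of 6 and of the erythroid markers 2 of 4 tested passed, each lower in dex. The summed peritubular and stromal markers were 112 to 162 CPM in saline and 128 to 135 CPM in dex, those of endothelial cells 49.5 to 59.1 and 52.2 to 65.7 CPM and those of macrophages 3.52 to 6.53 and 4.40 to 4.56 CPM, all of which overlapped. The part of somatic RNA in the values above was not tested.

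In somatic cells 13 members had enough counts to be tested between dex and saline. Of these 0 passed by edgeR, beside 3.91% of 16766 genes tested, and 0 stood at an unadjusted p-value under 0.05, beside 16.1%. DESeq2, which fitted 30 members, passed 0, beside 908 of 15586 genes. Limma on FPKM, which fitted 18, passed 0, beside 196 of 19567 genes with log2(FPKM + 0.1) and 195 with log2(FPKM + 1). Stag3 gave 16.8, 14.99 and 13.5 CPM in saline and 12.4, 11.1 and 15.5 in dex somatic cells, a log2 fold change of -0.18 ± 0.17 (SE, 95% interval -0.56 to 0.19, adjusted p = 0.679 by edgeR), and Dmc1 gave 1.77, 3.38 and 2.48 and 2.03, 2.92 and 5.44 CPM (0.49 ± 0.43 SE, 95% interval -0.42 to 1.40, adjusted p = 0.645 by edgeR). The values of both genes overlapped between the groups.

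Whether the dex effect differed between germ and somatic cells was tested by an interaction term over all 12 libraries, and 0 of 34 members passed by edgeR, beside 0.827% of 20551 genes. Hormad1, Majin, Spata22 and Terb2 had 0 counts in all 6 somatic libraries and could not pass. With 10 counts asked of every library 11 members were left, of which 0 passed, beside 1.99%. At an unadjusted p-value under 0.05 stood 6 of the 34, beside 13.3% of all genes, and the lowest adjusted p-value was 0.186, for Sycp3. DESeq2 passed 2, Meioc and Sycp3, with adjusted p-values of 0.0149 and 0.0174, beside 620 of 18220 genes. Without a count filter edgeR passed these and Mei1, beside 706 of 35743 genes. The 3 values rested on small counts in somatic cells: Meioc had 7, 12 and 22 counts in saline and 10, 0 and 3 in dex somatic libraries, Sycp3 6, 15 and 27 and 2, 9 and 1, and Mei1 0, 0 and 9 and 0, 0 and 0. Dmc1 had a difference of -0.81 ± 0.37 (SE, 95% interval -1.60 to -0.028, adjusted p = 0.355 by edgeR) on the log2 scale, which was -0.33 without the third dex somatic library and -1.10 without the first.

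The wider meiotic programme was followed with 47 other meiosis genes. Of the 46 tested in germ cells 0 passed between dex and saline by edgeR, with a median log2 fold change of 0.037. At an unadjusted p-value under 0.05 stood 11, beside 14.7% of all genes tested. By limma 0 passed, as of all 23343 genes, and by DESeq2 2, Tex19.1 and Swi5, beside 674 of 14816 genes. The most abundant in saline germ cells were Fkbp6 (226 ± 15.5 FPKM), Mael (220.5 ± 11.1) and Tex19.1 (171 ± 13.96), of the piRNA and transposon defence as much as of meiosis, and Sfr1 (125 ± 8.96), a recombination cofactor. Their log2 fold changes were -0.095, 0.075, -0.31 and -0.22. In saline somatic cells Sfr1 stood at 93.2% of its germ level, against at most 1.10% for the other three.

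Among regulators of meiotic entry, 0 of 18 tested passed between dex and saline germ cells by edgeR. At an unadjusted p-value under 0.05 stood 2, beside 14.7% of all genes tested. DESeq2 passed 1, Bmp4, beside 674 of 14816 genes, and limma 0, as of all 23343 genes. Dazl, which licenses germ cells for differentiation, was at 313 ± 28.05 FPKM in saline, Dmrt1, which holds back meiosis in spermatogonia, at 143 ± 9.76, Sohlh1, a spermatogonial transcription factor, at 109 ± 12.7, and Tcfl5, a transcription factor of the male germ line, at 49.03 ± 1.77. Their log2 fold changes were 0.028, -0.18, 0.0058 and 0.066.

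Of 24 repressors of germline genes tested, 3 fell in dex germ cells, beside 1.25% of all genes in either direction, namely the maintenance methyltransferase Dnmt1, its recruiting factor Uhrf1 and the de novo methyltransferase Dnmt3b. Dnmt1 gave 886, 839 and 861 CPM in saline and 686, 699 and 755 in dex germ cells, a log2 fold change of -0.28 ± 0.063 (SE, 95% interval -0.42 to -0.15, adjusted p = 0.0436 by edgeR). Uhrf1 fell from 613, 591 and 608 to 463, 519 and 518 CPM (-0.28 ± 0.065 SE, 95% interval -0.42 to -0.14, adjusted p = 0.0495 by edgeR) and Dnmt3b from 141, 121 and 125 to 103, 104 and 100.1 CPM (-0.35 ± 0.080 SE, 95% interval -0.52 to -0.18, adjusted p = 0.0495 by edgeR). No library overlapped between the groups for any of the 3, a separation that 20.1% of all genes showed, and each lay close to the threshold, and of 15 alternatives 4 kept the call of Dnmt1 and 3 each those of Uhrf1 and Dnmt3b. By DESeq2 5 of the 24 passed, these 3 with Hdac1 and Pcgf6, beside 674 of 14816 genes. By limma 0 passed, as of all 23343 genes, so that the limma settings among the 15 alternatives could keep no call. With any 1 of the 6 germ libraries left out, adjusted p-values by edgeR ran from 0.0557 to 0.208 for Dnmt1, from 0.0571 to 0.254 for Dnmt3b and from 0.0376 (without the second dex library) to 0.212 for Uhrf1. The other repressors of highest level did not pass, with Wdr5, a subunit of histone methyltransferase complexes, at -0.14 and Ehmt2, a histone H3 lysine methyltransferase, at 0.13.

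Of the general counterparts of the meiosis genes, 0 of 16 tested passed between dex and saline germ cells by edgeR. At an unadjusted p-value under 0.05 stood 6, beside 14.7% of all genes tested. DESeq2 passed 1, Smc1a, beside 674 of 14816 genes, and limma 0, as of all 23343 genes. Smc1a had a log2 fold change of -0.30 ± 0.088 (SE, 95% interval -0.49 to -0.12, adjusted p = 0.106 by edgeR), Rad21 one of 0.070 ± 0.067 (SE, 95% interval -0.072 to 0.21, adjusted p = 0.688 by edgeR), Stag1 0.024 and Stag2 0.077. The ratio of Smc1b to Smc1a given above overlapped between dex and saline germ libraries.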

How the data were processed

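RNA was extracted from germ cells sorted from PN1 testes by OCT4-GFP and from the GFP-negative remainder, and poly-A RNA was reverse transcribed with random hexamers and sequenced in 12 libraries, 3 in each of 4 groups. Per the labels, the authors aligned reads to mm10 with HISAT2 2.0.5, counted reads per gene with featureCounts 1.5.0-p3, and deposited the raw counts together with FPKM values. The annotation release and the strand setting are not given in the sources used here. Deposited tables of fold changes and p-values, which the authors made with DESeq2 1.20.0, were not used.

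Counts were tested with the quasi-likelihood test of edgeR 4.0.16 (R 4.3.3) after TMM scaling and its count filter (minimum count 10), with the 6 libraries of each comparison fitted together and all 12 for the difference between effects. P-values were adjusted over all genes tested by Benjamini-Hochberg, and genes at an adjusted p-value of 0.05 or less were called. SE and 95% intervals come from the same fit. Outside the limma alternatives named below, FPKM served only for levels and ratios, with 3 libraries per mean, and CPM were scaled over the 12 libraries. Totals of 18459692 to 25178477 counts put the limit for a count of 0 at 3 counts, which covers counting error only. Replicates were libraries of pooled litters, and no 2 libraries of the same group were copies of each other. Libraries of different groups were not checked for this. The test was tried on simulated counts first. Alternatives were RLE factors, library totals, no filter, 10 counts in every library, DESeq2 1.42.0, limma 3.58.1 on log2(FPKM + 0.1) or log2(FPKM + 1) after a filter at 0.1 FPKM, a replicate block, and leaving out each library.

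The 34 members, the gene lists and the tests were chosen with earlier results of these data known. Named genes were the 6 highest by FPKM in saline germ cells, the 3 highest and 3 lowest fold changes, members with the smallest excess over somatic cells, a set of well-studied members with their general counterparts, and, from each other list, genes called and the 4 of highest FPKM. Members with a sizeable somatic share, those called by a single alternative (Mei1 among them) and the promoters shown were picked after their values were seen. Sharing of 64-base stretches was counted on GENCODE transcripts of GRCm38. Promoter windows came from RefSeq (GRCm38.p6), which matched 27 of 34 members, and protein sequences were not used here. The values of 1 general counterpart are not reported here.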

Additional observations from a re-analysis of the deposited data

How the results depend on the processing

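For the dex comparison in germ cells, 0 members passed under each alternative but one: with no count filter 1 passed, beside 767 of 33910 genes. The limma settings passed 0 of 23343 genes, so that no member could pass under them. Between germ and somatic cells, asking for 10 counts in every library left 11 members to test in saline and 12 in dex, of which 10 passed in each. The count for the difference between effects rose from 0 to 3 with no filter and to 2 with DESeq2, beside 706 of 35743 and 620 of 18220 genes. The member median in germ cells was 0.029 with library totals and ran from -0.043 to 0.066 when 1 library was left out. Germ over somatic differences moved with scaling: the median of all genes was 0.072 with TMM, 0.17 with RLE and 0.21 with library totals. 

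Values near 0 changed sign. With 1 library left out, the dex fold change of Smc1b ran from -0.23 to 0.022, Stra8 from -0.29 to 0.094, Rad21l from -0.15 to 0.044, Rec8 from -0.14 to 0.0083, Spo11 from -0.32 to 0.068, Tex11 from -0.060 to 0.11 and Sycp3 from -0.039 to 0.045. Sycp3 was 0.0023 with RLE, 0.022 with library totals, 0.0035 with no filter, 0.0030 with DESeq2, 0.024 and 0.023 with limma and 0.0056 over 12 libraries. Prdm9 between germ and somatic cells in saline was 0.087 with RLE, 0.13 with library totals, 0.029 with no filter, 0.046 with 10 counts in every library, 0.094 with DESeq2, 0.13 and 0.057 with limma, 0.022 with the replicate block, and -0.16 to 0.26 with 1 library left out. The difference of Mei1 was -0.023 with limma at log2(FPKM + 1) and -0.088 to 5.17 with 1 library left out. The cause of these shifts was not tested. Of 475 alternatives of 31 single-gene values, 392 kept direction and side of the threshold.

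The labels tie no library pair. Correlations of same-numbered libraries' deviations over 11983 genes were 0.12, -0.21 and -0.13 between dex and saline germ libraries and 0.0061, -0.028 and -0.0050 between germ and somatic libraries of dex testes. Between germ and somatic libraries of saline testes they were 0.085, 0.15 and 0.12, which is a hint from the data and not from the labels that these numbers pair. Every unlike-numbered pair there was below 0. Deviations from a group mean sum to 0, which pulls these pairs down once the same-numbered ones are positive, so that their sign adds no separate evidence. With the replicate block 65 instead of 231 genes passed in germ cells and 90 instead of 170 for the difference, and 0 members in both, and 32 instead of 33 members were higher in germ than in somatic cells of saline testes. With 3 libraries per group, intervals of the low members Meiob, Mei4, Prdm9 and Mcmdc2 were the widest. When 1 library was left out, the group left with 2 was fitted with the others' spread.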
